A study of Homo sapiens with 8 samples.

Results

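The genes examined were 10 regulators of the G1 phase of the cell cycle: the D cyclins CCND1, CCND2 and CCND3, their partner kinases CDK4 and CDK6, the kinase inhibitors CDKN1B, CDKN2A, CDKN2B and CDKN2C, and the retinoblastoma gene RB1. They were chosen by name, as a list of core genes of this step, out of 22678 genes to which a current symbol could be given. The choice was made with earlier results of these data known. Their levels were read in 8 RNA-seq libraries of the clear cell renal cell carcinoma (ccRCC) cell lines A498 and 786-O, which had been transfected to deplete SLINKY, a long intergenic noncoding RNA. Each line was represented by 2 libraries of a non-target control siRNA (NTC), 1 library of SLINKY siRNA #1 and 1 of siRNA #2. All cells, controls included, received siRNA at 50 nM with Lipofectamine 2000 for 16 h per the labels, and the study's methods place the isolation of RNA later than that. A498 cells were kept in DMEM and 786-O cells in RPMI-1640, so the line and the medium cannot be told apart. Both siRNAs target the first exon of SLINKY. Each group is a single cell line, and nothing states whether its libraries came from separate cultures, so the p-values below measure only the spread between these libraries.

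In G1 the D cyclins bind CDK4 and CDK6, and the active kinases phosphorylate the RB1 protein, which otherwise holds E2F transcription factors in check. The INK4 inhibitors (CDKN2A, CDKN2B, CDKN2C and CDKN2D) bind CDK4 and CDK6 and keep them from the cyclins. CDKN1B, or p27, binds the assembled complexes and is best known as an inhibitor of CDK2. CDKN2A and CDKN2B lie side by side on the short arm of chromosome 9, a region often lost in tumors. Cyclin D1 is known as a hypoxia-inducible factor target in renal carcinoma cells that lack VHL.

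The depth of the libraries was estimated at 25100000 to 64700000 mapped reads. SLINKY was 89.3% below the NTC mean in A498 and 96.0% below it in 786-O with siRNA #1. The drop was 80.3% and 58.2% with siRNA #2. Its levels in the NTC libraries were 14.6 and 16.1 FPKM in A498 and 1.45 and 1.39 FPKM in 786-O. The renal markers PAX8 (39.2 to 48.1 FPKM) and LHX1 (4.42 to 7.17 FPKM) were present in all libraries, and PAX2 was low (1.06 to 1.84 FPKM). Another listed renal marker, CDH16, was at 1.60 to 1.72 FPKM in A498 and at 0.200 to 0.333 FPKM in 786-O. The listed marker NDUFA4L2 had no entry. The leukocyte marker PTPRC was listed at 0 in all 8, and PECAM1 and ALB did not exceed 0.0385 and 0.0778 FPKM. CA9, an enzyme typical of clear cell carcinoma, was low in both lines, at 0.293 to 0.559 FPKM in A498 and at most 0.0229 FPKM in 786-O. Levels are FPKM, that is, read numbers scaled to the length of the transcript and to the mapped reads of the library, so that levels of different genes can be set side by side. In RNA from whole cultures, fewer cells that express a gene and less RNA per cell cannot be told apart.

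Of the 10 genes, 7 were measured at a mean of at least 1 FPKM and could be tested, and CCND2, CDKN2A and CDKN2B were listed at 0 in all 8 libraries. CCND3 was the leading D cyclin of A498. With the entries of a gene summed, 786-O carried CCND1 and CCND3 at similar levels. A498 had more CCND3 and less CCND1, CDK4 and CDK6 than 786-O, small differences in CDKN2C and RB1, and a CDKN1B level that could not be separated from that of 786-O. Between the lines, 6 of the 7 genes passed limma's test at a Benjamini-Hochberg adjusted p under 0.05, 1 higher in A498 and 5 higher in 786-O. This share has to be read against the background, since 80.5% of the 11367 genes tested passed the same test, 39.1% higher in A498 and 41.4% higher in 786-O. With median-ratio scaling the larger side of all calls was A498, with 4827 of 9160. The median absolute difference was 0.61 on the log2 scale for the 7 genes and 0.51 for all genes tested.

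**Figure D1:**
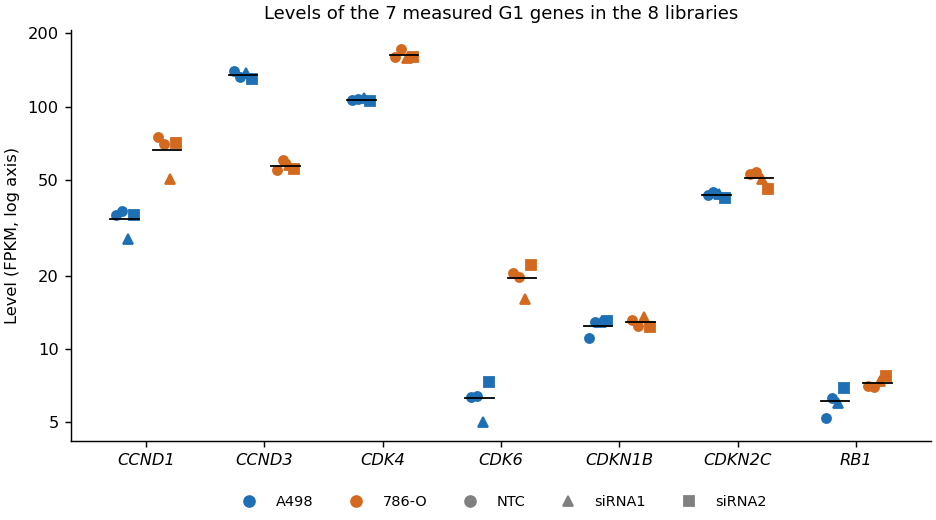
Level of each of the 7 measured genes in FPKM (log axis) in every library, with A498 in blue and 786-O in orange. Circles are NTC, triangles siRNA #1, squares siRNA #2, and the black line is the mean of the 4 libraries of a line. The lines stand apart for CCND3, CDK4 and CDK6 and overlap for CDKN1B, and the siRNA #1 triangle is the lowest point of each line for CCND1 and CDK6.

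CCND3, which encodes cyclin D3, was the most abundant of the 10 genes in A498. It was at 140 and 132 FPKM in the NTC libraries of A498, 138 with siRNA #1 and 130 with siRNA #2. The 786-O levels were lower, at 54.7 and 60.0 FPKM in the NTC libraries, 57.5 with siRNA #1 and 55.5 with siRNA #2. Every A498 library lay above every 786-O library, and the siRNA libraries lay among or close to their controls. The mean over the NTC and siRNA libraries together was 135 ± 4.63 FPKM (SD, n = 4) in A498. In 786-O it was 56.9 ± 2.35 FPKM (SD, n = 4). The log2 difference was 1.24 (standard error 0.042, limma adjusted p = 8.4e-08).

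CCND3 has entries with 2 different starts in the deposited tables, and the start regions of both are shown because the lines differed in how much of the gene was assigned to each. Each is 300 bases long, from 250 bases before the RefSeq start to 50 after it, on the minus strand. These RefSeq starts lie 184 bases (upstream) and 6 bases (downstream) past the starts of the deposited entries. The sequences come from a RefSeq promoter table of GRCh38.p14, and each matched GRCh37 (hg19, the build of the files) at a single position, given here. Capitals mark GC boxes (GGGCGG, or CCGCCC on the other strand), the motif of SP factors, and E boxes (CACGTG), the motif of MYC and related factors. Of the 35116 promoters of the table, 45.0% hold a GC box, 7.26% an E box, 11.5% the TATA box TATAAA and 1.63% the E2F motif GCGGGAAA, on either strand.
CCND3 upstream start, chr6:42016377-42016676: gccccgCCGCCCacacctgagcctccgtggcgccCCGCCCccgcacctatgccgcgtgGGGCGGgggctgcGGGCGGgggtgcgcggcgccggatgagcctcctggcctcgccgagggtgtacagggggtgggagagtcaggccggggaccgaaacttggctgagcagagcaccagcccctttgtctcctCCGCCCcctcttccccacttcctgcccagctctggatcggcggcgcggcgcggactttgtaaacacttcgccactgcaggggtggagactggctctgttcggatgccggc
CCND3 downstream start, chr6:41909497-41909796: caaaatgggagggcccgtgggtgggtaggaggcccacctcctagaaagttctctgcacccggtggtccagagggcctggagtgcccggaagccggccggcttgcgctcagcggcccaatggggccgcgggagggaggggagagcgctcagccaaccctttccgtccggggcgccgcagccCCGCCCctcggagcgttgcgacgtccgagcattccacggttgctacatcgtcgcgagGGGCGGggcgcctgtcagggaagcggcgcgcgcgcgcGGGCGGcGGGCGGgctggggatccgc
The upstream window holds 5 GC boxes and the downstream window 4, and neither holds any of the other 3 motifs.

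The transcripts from the downstream start (NM_001760 and NM_001136125) made up nearly all of CCND3 in both lines. Their summed level was 125 to 136 FPKM in A498 and 54.7 to 59.2 FPKM in 786-O. The transcripts from the upstream start (NM_001136126 and NM_001136017) were at 3.47 and 2.62 FPKM in the A498 NTC libraries, 9.35 with siRNA #1 and 4.96 with siRNA #2. In 786-O they were at nearly 0 and 0.791 FPKM in the NTC libraries, 0.911 with siRNA #1 and nearly 0 with siRNA #2. All 4 A498 libraries were above all 4 of 786-O, and the A498 siRNA #1 library stood highest. The upstream transcripts were thus 1.98% to 6.79% of CCND3 in A498 and at most 1.58% in 786-O. Cufflinks divides the reads of shared exons between these entries, and the split was not tested.

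CCND1, which encodes cyclin D1, was at 35.7 and 37.2 FPKM in the A498 NTC libraries, 28.5 with siRNA #1 and 35.6 with siRNA #2. In 786-O it was at 74.8 and 70.2 FPKM in the NTC libraries, 50.4 with siRNA #1 and 70.5 with siRNA #2. The lines did not overlap, and in each of them siRNA #1 gave the lowest value while siRNA #2 stayed beside the controls. The mean over the NTC and siRNA libraries together was 34.3 ± 3.91 FPKM (SD, n = 4) in A498. In 786-O it was 66.5 ± 10.9 FPKM (SD, n = 4). A498 thus lay below 786-O by a log2 difference of -0.95 (standard error 0.11, limma adjusted p = 0.00011). The gene is listed once in the files, as NM_053056, at chromosome 11, 69455873 to 69469242, and its Cufflinks intervals correspond to 3661 to 18569 reads per library.

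CCND2, the third D cyclin, was listed at 0 FPKM in all 8 libraries. If a 0 stands for the absence of reads, a count of 3 reads over its 6493 bases would allow at most 0.00737 to 0.0190 FPKM in a library, with counting error alone covered. Its neighbour TIGAR, 15.8 kb away, was at 5.62 FPKM in A498 and 3.95 FPKM in 786-O (means, n = 4). The other neighbour that was tested, CRACR2A, was at a mean of 0.00778 FPKM in A498 and 2.11 FPKM in 786-O.

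Summed over the family, the D cyclins were at 165 to 175 FPKM in A498 and at 108 to 130 FPKM in 786-O. CCND1 supplied 17.2% to 21.9% of that sum in A498 and 46.7% to 57.7% in 786-O. CCND3 exceeded CCND1 by a ratio of 3.56 to 4.83 in A498, whereas the ratio was 0.732 to 1.14 in 786-O. Only in the siRNA #1 library of 786-O was CCND3 above CCND1 in that line. With only the most abundant entry of each gene, the share of CCND1 was larger in both lines. These sums and ratios describe the libraries and were not tested.

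**Figure D2:**
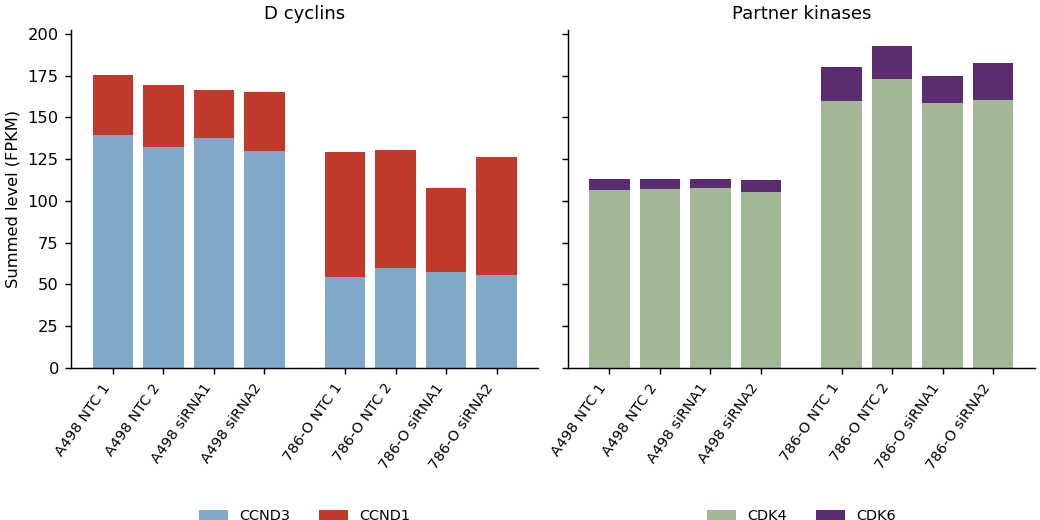
Stacked bars of the summed level (FPKM) of the D cyclins CCND3 and CCND1 (left) and of the kinases CDK4 and CDK6 (right) in each of the 8 libraries. The D cyclin bars are taller in A498 (165 to 175) than in 786-O (108 to 130) and the kinase bars are shorter (113 against 175 to 193).

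CDK4, the more abundant partner kinase, was at 107 FPKM in both NTC libraries of A498, 108 with siRNA #1 and 105 with siRNA #2. The 786-O levels were 160 and 173 FPKM in the NTC libraries, 159 with siRNA #1 and 160 with siRNA #2. The A498 libraries lay within 3 FPKM of one another and all of them below the 786-O libraries. The log2 difference was -0.61 (standard error 0.034, limma adjusted p = 1.2e-06). The CDK4 entry overlaps the end of TSPAN31, whose levels ran the other way, at 11.6 to 13.5 FPKM in A498 and 6.65 to 7.29 FPKM in 786-O. The kit is not stated to keep the strand, so reads in the shared stretch could belong to either gene.

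CDK6 was the gene of the list that differed most between the lines. It was at 6.32 and 6.43 FPKM in the A498 NTC libraries, 5.01 with siRNA #1 and 7.31 with siRNA #2. In 786-O the level was 20.5 and 19.7 FPKM in the NTC libraries, 16.1 with siRNA #1 and 22.1 with siRNA #2. The lines were far apart, and in both of them the order was siRNA #1 below NTC below siRNA #2. The mean over the NTC and siRNA libraries together was 6.27 ± 0.948 FPKM (SD, n = 4) in A498. In 786-O it was 19.6 ± 2.54 FPKM (SD, n = 4). The log2 difference was -1.63 (standard error 0.13, limma adjusted p = 1.2e-05). CDK6 and CCND3 were the members past a 2-fold difference and the test, as were 22.9% of all genes tested.

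CDK6 also has entries with 2 starts, and their start regions are shown as for CCND3, on the minus strand with the same marks, because the entry of the upstream start was close to 0 in both siRNA #1 libraries.
CDK6 upstream start, chr7:92465838-92466137: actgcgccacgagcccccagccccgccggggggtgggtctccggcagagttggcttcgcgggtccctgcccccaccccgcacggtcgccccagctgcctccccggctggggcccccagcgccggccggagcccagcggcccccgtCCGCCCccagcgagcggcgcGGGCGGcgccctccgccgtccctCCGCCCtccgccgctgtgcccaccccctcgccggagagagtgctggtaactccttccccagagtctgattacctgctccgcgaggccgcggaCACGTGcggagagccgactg
CDK6 downstream start, chr7:92463224-92463523: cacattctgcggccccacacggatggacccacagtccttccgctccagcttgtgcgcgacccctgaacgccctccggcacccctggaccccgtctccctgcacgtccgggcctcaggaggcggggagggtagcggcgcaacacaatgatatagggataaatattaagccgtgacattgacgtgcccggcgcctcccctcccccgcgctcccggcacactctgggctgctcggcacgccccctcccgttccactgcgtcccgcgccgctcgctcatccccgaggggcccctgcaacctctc
The upstream window holds 3 GC boxes and 1 E box, and the downstream window holds none of the 4 motifs searched. The RefSeq starts of these windows lie 54 and -42 bases from the starts of the deposited entries, where a negative value is upstream.

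The downstream entry (NM_001259) carried 5.01 to 7.25 FPKM in A498 and 16.1 to 21.4 FPKM in 786-O. The upstream entry (NM_001145306) was at 0.288 and 0.655 FPKM in the A498 NTC libraries, nearly 0 with siRNA #1 and 0.0607 with siRNA #2. In 786-O it was at 0.605 and 0.540 FPKM in the NTC libraries, nearly 0 with siRNA #1 and 0.757 with siRNA #2. It was a small part of the gene in every library, and Cufflinks divides the reads shared by these entries. The noncoding entry ENSG00000237819.1 overlaps the upstream start and was at 4.02 to 4.95 FPKM in A498 and at 7.26 to 10.7 FPKM in 786-O.

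Together CDK4 and CDK6 were at 113 FPKM in A498 and at 175 to 193 FPKM in 786-O. CDK4 exceeded CDK6 by a ratio of 14.4 to 21.5 in A498 and of 7.25 to 9.86 in 786-O. Set against the summed D cyclins, the kinases came to a ratio of 0.645 to 0.682 in A498 and of 1.39 to 1.62 in 786-O.

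Of the 4 inhibitors among the 10 genes, CDKN2C, which encodes p18, was the most abundant. It was at 43.0 and 44.2 FPKM in the A498 NTC libraries, 43.7 with siRNA #1 and 42.0 with siRNA #2. The 786-O levels were 52.7 and 53.8 FPKM in the NTC libraries, 50.3 with siRNA #1 and 45.6 with siRNA #2. The lines did not overlap, but the 786-O siRNA #2 library came within 2 FPKM of the highest A498 library. The log2 difference was -0.22 (standard error 0.045, limma adjusted p = 0.0023). It was -0.11 (limma adjusted p = 0.458) when each gene was represented by its most abundant entry instead of the sum of its 2 entries.

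CDKN2A and CDKN2B, the INK4 genes of chromosome 9, were listed at 0 FPKM in all 8 libraries, in all 4 entries of CDKN2A and both of CDKN2B. Read as no reads, and with a count of 3 reads allowed, the limit was 0.0544 to 0.153 FPKM per library for CDKN2A and 0.0127 to 0.0327 FPKM for CDKN2B. CDKN2A-AS1 was listed at 0 as well. The GENCODE entry ENSG00000240498.2, which spans CDKN2B and lies on chromosome 9 from 21994777 to 22121096, was at 0.108 to 0.139 FPKM in all 8 libraries. The RefSeq entries of CDKN2B-AS1 were at nearly 0, and the longest run from 21994790 to 22121093, nearly the same limits. Their values therefore do not show that this stretch lacked reads.

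The genes on either side of this pair were measured in both lines. MTAP, a methionine salvage enzyme whose gene ends 102 kb before CDKN2A, was at 14.5 to 16.4 FPKM in A498 and 7.78 to 8.91 FPKM in 786-O. DMRTA1, 438 kb beyond CDKN2B, was at 7.57 to 8.39 FPKM in A498 and 3.56 to 4.05 FPKM in 786-O. The zeros were therefore bounded on both sides by genes with reads in every library. Of the 11 listed neighbours, 7 were tested and all 7 passed between the lines, where 80.5% of all genes tested passed. Of these neighbours 6 were higher in A498 and 1, FOCAD, higher in 786-O (4.03 against 4.64 FPKM, means of 4 libraries). Of all genes tested, 39.1% passed higher in A498 and 41.4% higher in 786-O. HACD4 was at 17.4 to 20.8 FPKM in A498 and 0.340 to 0.518 FPKM in 786-O, and MLLT3 at 10.2 to 10.9 and 3.34 to 3.79 FPKM. KLHL9 had means of 5.33 and 3.52 FPKM. IFNB1, the interferon beta gene, was at 3.94 to 5.24 FPKM in A498 and listed at 0 to 0.0432 FPKM in 786-O. The 4 genes that were too low to test were ELAVL2, IFNE, IFNA1 and CDKN2B-AS1, the last by its RefSeq entries. ELAVL2 was at 0.678 to 1.13 FPKM in A498 and listed at 0 in 786-O. IFNE was at most at 0.411 FPKM, and IFNA1 was listed at 0 in all 8.

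**Figure D3:**
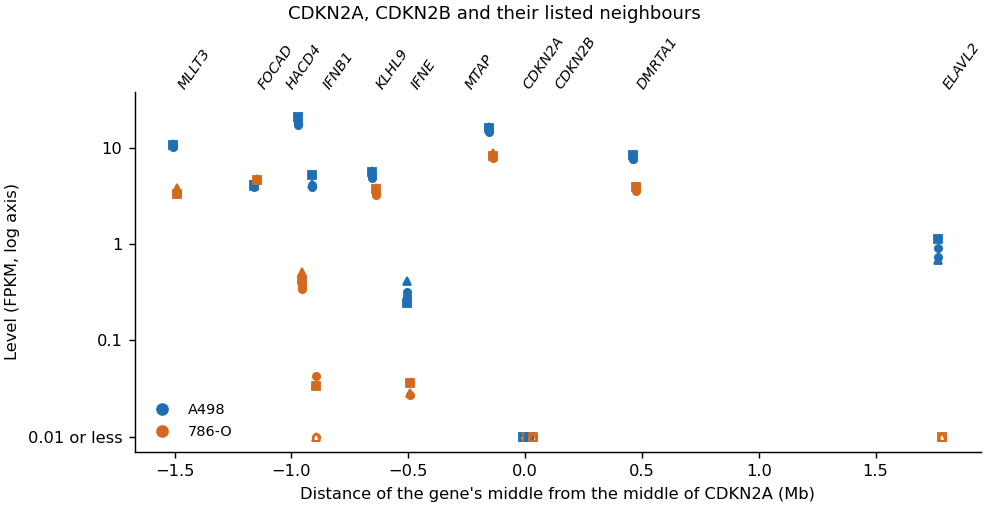
Level in FPKM (log axis) of CDKN2A, CDKN2B and their listed neighbours in each library, against the distance in megabases of the middle of each gene from the middle of CDKN2A. Blue is A498, orange is 786-O, and open symbols at the bottom are values of 0.01 FPKM or less (circles NTC, triangles siRNA #1, squares siRNA #2, with IFNA1 and CDKN2B-AS1 not drawn). CDKN2A and CDKN2B are at the bottom in all 8 libraries, between MTAP and DMRTA1, which are above 3.5 FPKM in all of them.

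CDKN2D, the remaining INK4 gene, is not one of the 10 genes but completes the family. It was at 7.77 to 8.98 FPKM in A498 and 17.1 to 19.9 FPKM in 786-O, a log2 difference of -1.09 (standard error 0.042, limma adjusted p = 1.8e-07). CDKN2C supplied 82.7% to 84.4% of the summed INK4 level in A498 and 72.7% to 74.3% in 786-O, and the sum itself was 49.8 to 53.1 and 62.7 to 73.7 FPKM.

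CDKN1B, which encodes p27, was at 11.1 and 13.0 FPKM in the A498 NTC libraries, 12.9 with siRNA #1 and 13.0 with siRNA #2. In 786-O it was at 13.2 and 12.5 FPKM in the NTC libraries, 13.6 with siRNA #1 and 12.3 with siRNA #2. The lines overlapped. The log2 difference of -0.046 did not pass (standard error 0.060, limma adjusted p = 0.495), and its 95% interval ran from -0.19 to 0.094, which still allows a difference of that size.

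RB1, the substrate of the kinases, was the least abundant measured gene of 786-O and close to CDK6 in A498. It was at 5.22 and 6.30 FPKM in the A498 NTC libraries, 6.02 with siRNA #1 and 6.93 with siRNA #2. In 786-O it was at 7.05 and 6.95 FPKM in the NTC libraries, 7.37 with siRNA #1 and 7.73 with siRNA #2. The lines did not overlap, but the highest A498 library and the lowest 786-O library differed by less than the spread within A498. The log2 difference was -0.25 (standard error 0.070, limma adjusted p = 0.0108), and it did not pass in the NTC libraries alone (-0.28, limma adjusted p = 0.095) or in the siRNA libraries alone (-0.22, limma adjusted p = 0.116). LPAR6 lies within the span of RB1 and none of its entries exceeded 0.947 FPKM. Libraries of the lines did not overlap for 6 of the 7 genes, as for 75.5% of all genes tested.

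**Figure D4:**
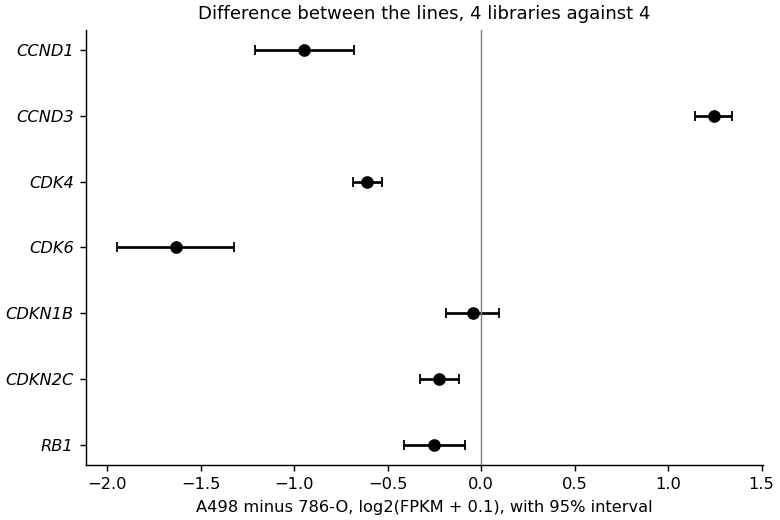
Difference between A498 and 786-O in log2(FPKM + 0.1) for the 7 measured genes, with the 95% interval of limma's fit over 4 libraries a line. CCND3 is the only point to the right of 0 (1.24), CDK6 lies farthest to the left (-1.63), and the interval of CDKN1B includes 0.

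Within each line most members kept their order. In A498 it was CCND3, CDK4, CDKN2C, CCND1 and CDKN1B, each range of 4 libraries apart from the next, followed by CDK6 (5.01 to 7.31 FPKM) and RB1 (5.22 to 6.93 FPKM), whose ranges overlapped. In 786-O CDK4 stood first, and the ranges of CCND1 (50.4 to 74.8), CCND3 (54.7 to 60.0) and CDKN2C (45.6 to 53.8 FPKM) could not all be separated, since the siRNA #1 value of CCND1 lay among the others. CDK6, CDKN1B and RB1 followed, each range apart from the next.

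The genes next to the members did not all differ as the members did. LTO1, 11.1 kb from CCND1, was lower in A498 by a log2 difference of -0.74, and MYEOV on the other side by -0.17 (limma adjusted p = 0.00016 and 0.0044). BYSL and TAF8 beside CCND3 were lower in A498, at -0.37 and -0.24 (limma adjusted p = 7.6e-05 and 0.0055), while CCND3 itself was higher. Beside CDK4, AGAP2-AS1 was higher in A498 (0.61, limma adjusted p = 0.00012) and MARCHF9 lower (-2.36, limma adjusted p = 6.2e-07). Beside CDK6, SAMD9 was higher in A498 (3.94, limma adjusted p = 4.5e-09) and FAM133B did not pass (-0.38, limma adjusted p = 0.162).

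The same held around the other members. CREBL2 beside CDKN1B was higher in A498 (0.64, limma adjusted p = 9.3e-06) and DDX47 did not pass (-0.047, limma adjusted p = 0.312). FAF1 and RNF11, the neighbours of CDKN2C, were lower in A498 like CDKN2C (-0.30 and -0.40, limma adjusted p = 2.1e-05 and 0.00081). Around RB1, ITM2B was higher in A498 (0.91, limma adjusted p = 1.0e-06) and RCBTB2 lower (-1.21, limma adjusted p = 8.7e-06).

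Other genes of the RB pathway split in both directions between the lines. Of 23 listed, 22 were tested and 16 passed (72.7%, against 80.5% of all genes), 5 higher in A498 and 11 higher in 786-O. Their median log2 difference was -0.18 against -0.024 for all genes tested. The CDK2 inhibitor CDKN1A (p21) was at 286 to 314 FPKM in A498 and 46.8 to 51.6 FPKM in 786-O, a log2 difference of 2.59 (standard error 0.046, limma adjusted p = 4.2e-09). CDKN1C (p57), of the same family, was at means of 2.81 and 0.176 FPKM (log2 difference 3.40, limma adjusted p = 1.0e-07). The E cyclins, partners of CDK2, went opposite ways, CCNE1 higher in A498 (16.0 against 7.08 FPKM) and CCNE2 lower (2.52 against 6.12 FPKM). CDK7, the kinase that activates CDKs, was higher in A498 (19.9 against 8.77 FPKM), and RBL1, the RB1 relative p107, was lower (0.965 against 2.59 FPKM).

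Genes that E2F factors are known to switch on were mostly lower in A498, in a list chosen with earlier results of these data known. All 23 listed were tested and 20 passed (87.0%, against 80.5% of all genes), 2 higher in A498 and 18 higher in 786-O. Of all genes tested, 39.1% passed higher in A498 and 41.4% higher in 786-O. The median log2 difference of the 23 targets was -0.60 against -0.024 for all genes. Among those with the largest differences were POLA1 (1.47 against 3.96 FPKM in 786-O), MYBL2 (58.0 against 139), MCM4 (31.7 against 57.3), GINS2 (55.9 against 101) and CHEK1 (6.76 against 11.6), all of which act in DNA replication, its checkpoint, or cell cycle transcription.

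Of 10 genes for the turnover of D cyclins and p27, 9 were tested and 7 passed (77.8%, against 80.5% of all genes), 3 higher in A498 and 4 higher in 786-O, with a median log2 difference of -0.071. AMBRA1, an adaptor for the ubiquitin ligase that destroys D cyclins, was at 8.74 to 9.47 FPKM in A498 and 2.95 to 3.31 FPKM in 786-O (log2 difference 1.52, limma adjusted p = 8.9e-08). CRYAB, a chaperone described as a cofactor of FBXO4, was at 171 to 183 and 1.35 to 2.18 FPKM. FBXO4 itself was lower in A498 (5.14 against 11.0 FPKM). SKP2 and CKS1B, which act in the destruction of p27, were lower in A498 (6.67 against 17.5 and 132 against 157 FPKM), as was RNF123, a ligase for p27 (2.29 against 3.60 FPKM). Of the 12 cell type markers found in the files, 7 were tested and all passed, against 80.5% of all genes. Of these markers 4 were higher in A498 and 3 higher in 786-O, with absolute log2 differences of at most 0.56.

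Depletion of SLINKY was compared with NTC in each line. With both siRNAs taken as replicates of the knockdown, none of the 7 genes passed limma's test over both lines, within A498 or within 786-O, where 0.0088%, 0.176% and 0.141% of all genes tested passed. At an unadjusted p under 0.05, again none of the 7 did in these fits, against 11.5%, 4.3% and 4.21% of all genes. In the test of whether the knockdown effect differed between the lines none passed either, adjusted or unadjusted, against 0.141% and 1.93% of all genes. The pooled log2 differences of the 7 genes ran from -0.24 for CCND1 to 0.14 for RB1.

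CCND1 and CDK6 had their lowest value of each line with siRNA #1. With siRNA #1, CCND1 was 21.8% below the NTC mean in A498 and 30.4% below it in 786-O, whereas with siRNA #2 it was 2.21% and 2.68% below. CDK6 was 21.1% and 19.8% below the NTC mean with siRNA #1, and 14.4% and 9.93% above it with siRNA #2. The NTC libraries of a line differed from each other by 3.89% and 6.46% for CCND1 and by 1.62% and 3.80% for CDK6, less than each of these siRNA #1 differences. Each siRNA had 1 library a line, so that within a line there is no replicate check.

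Past the fold threshold of the study, which is 25% up or 20% down, CCND1 and CDK6 were lower with siRNA #1 in A498 and CCND1 in 786-O, 2 and 1 of the 7 genes, where 3.33% and 3.58% of all genes tested were lower by that much. CDK6 in 786-O lay just short of it, at a log2 difference of -0.32. CCND1 was past it in both lines, as were 1.15% of all genes. With siRNA #2 none of the 7 genes was past the threshold in either line, where 7.41% and 5.77% of all genes were. With each gene represented by its most abundant entry, CDKN2C with siRNA #2 in 786-O was past it, at a log2 difference of -0.47, and CDK6 with siRNA #1 in A498 was not, at -0.23. The NTC libraries set against each other put 6.31% and 6.12% of all genes past it and none of the 7.

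**Figure D5:**
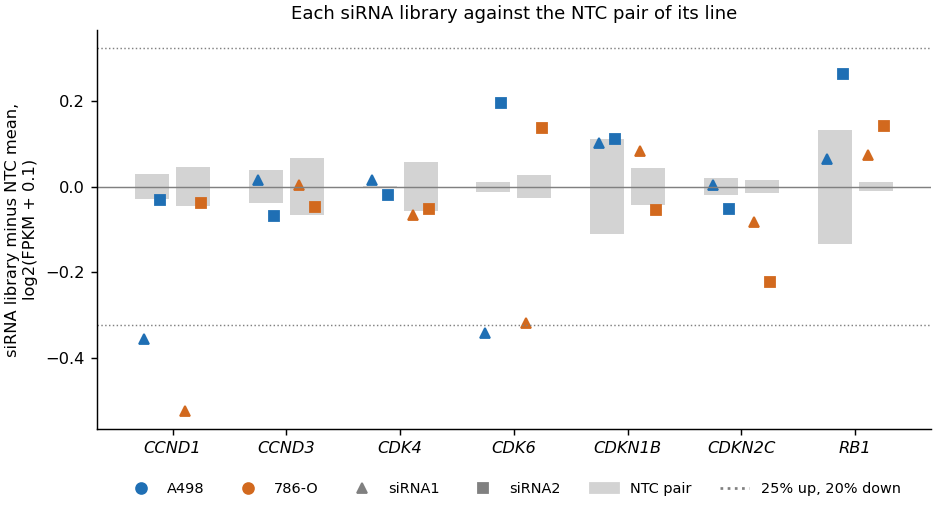
Difference of each siRNA library from the NTC mean of its line, in log2(FPKM + 0.1), for the 7 measured genes, with A498 in blue and 786-O in orange, triangles for siRNA #1 and squares for siRNA #2. Grey boxes span the NTC pair of the line and dotted lines mark 25% up and 20% down. The triangles of CCND1 and CDK6 lie between -0.52 and -0.32 in both lines, away from the squares and the grey boxes.

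Taken over both lines, the log2 difference of siRNA #1 from NTC was -0.44 for CCND1 (standard error 0.054, 95% interval -0.57 to -0.31) and -0.33 for CDK6 (standard error 0.039, 95% interval -0.42 to -0.24). Neither passed after adjustment over all genes (limma adjusted p = 0.086 and 0.077), where 0.0704% of all genes did. Both were under an unadjusted p of 0.05, like 10.1% of all genes, and the other 5 genes were not. When genes spanning under 200 bases were left out, both passed (limma adjusted p = 0.0141 and 0.0359). Leaving out single libraries gave differences of -0.52 to -0.35 for CCND1 and -0.35 to -0.31 for CDK6.

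For siRNA #2 over both lines none of the 7 genes passed, where 0.0352% of all genes did. CDK6 (0.17), RB1 (0.21) and CDKN2C (-0.14) were under an unadjusted p of 0.05, like 12.6% of all genes (limma adjusted p = 0.333, 0.374 and 0.357). The A498 NTC libraries differed from each other by 16.8% for RB1, and RB1 was 19.97% above their mean with siRNA #2. The siRNA #1 and siRNA #2 differences share the same NTC libraries.

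Set directly against each other over both lines, a comparison added after the values were seen, siRNA #1 gave less CDK6 than siRNA #2, with a log2 difference of -0.50 (standard error 0.045, limma adjusted p = 0.042, 0.0528% of all genes passed). This call was lost when any 1 of the 8 libraries was left out (limma adjusted p from 0.0894 to 0.164), although the difference stayed between -0.53 and -0.46. It was also lost with the highest entry per symbol (limma adjusted p = 0.152). A fit that grouped NTC 1 with siRNA #1 and NTC 2 with siRNA #2 lost it too (limma adjusted p = 0.493). In that fit the siRNA difference is taken relative to the difference between NTC 1 and NTC 2, so it is no check of replicates. For CCND1 the difference was -0.40 (standard error 0.062) and did not pass (limma adjusted p = 0.130), but it passed when genes spanning under 200 bases were left out (limma adjusted p = 0.0358).

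For CCND3 and CDK4 the log2 difference of siRNA #1 from NTC over both lines was 0.011 (95% interval -0.11 to 0.13) and -0.025 (95% interval -0.13 to 0.080), and no single siRNA library lay farther from its NTC mean than -0.070 for CCND3 and -0.065 for CDK4. CDKN1B was 7.36% and 7.98% above the NTC mean with the siRNAs in A498 and 5.94% above and 3.76% below it in 786-O, within or near the 14.1% and 6.04% by which the NTC libraries differed. CDKN2C was within 5.50% of the NTC mean except with siRNA #2 in 786-O, where it was 14.3% lower. RB1 was above the NTC mean in every siRNA library, by a log2 difference of 0.26 in A498 and 0.14 in 786-O with siRNA #2 and of 0.063 and 0.073 with siRNA #1, where the A498 NTC libraries differed by -0.27, NTC 1 against NTC 2. CCND2, CDKN2A and CDKN2B were at 0 with each siRNA as with NTC.

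No gene of the RB pathway, E2F target, turnover, chromosome 9 or marker lists passed in any of the knockdown fits. With both siRNAs pooled over both lines, 9 of the 23 E2F targets were under an unadjusted p of 0.05, as were 11.5% of all genes. So were 3 of the 22 RB pathway genes tested: CCNE2 (log2 difference 0.41), E2F5 (0.28) and CDKN2D (-0.15), at limma adjusted p = 0.334, 0.416 and 0.367. CCNE2 was above both NTC libraries of its line in every siRNA library. With siRNA #1 the 23 E2F targets had a median log2 difference of -0.086 over both lines against 0.010 for all genes, and 8 of them were under an unadjusted p of 0.05, where 10.1% of all genes were. With siRNA #2 the median was -0.017 against 0.014 and 3 were, where 12.6% of all genes were. The NTC libraries of A498, set against each other, had a median of -0.12 for the same targets against -0.024 for all genes, and those of 786-O had -0.0013 against -0.0042.

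The genes whose levels followed CCND1 most closely were sought over the 8 libraries after the mean of each line was taken off. The 5 with the highest Pearson r were SECISBP2 (0.99), ACTG1P20 (0.99), HJURP (0.99), MRAS (0.99) and SWAP70 (0.99). All points come from the same 8 libraries, which were also those that set the likeness, so no test is given. With the line means taken off, CCND1 varied mainly through its siRNA #1 libraries. Values of r with CCND1 therefore mostly reflect how a gene stood with siRNA #1. SECISBP2, a factor for selenoprotein synthesis, was at 6.91 and 7.82 FPKM in the A498 NTC libraries, 4.32 with siRNA #1 and 7.64 with siRNA #2, and at 10.5, 9.46, 5.03 and 9.74 FPKM in 786-O. MRAS, a RAS family GTPase, was at 2.48, 2.49, 1.20 and 2.34 FPKM in A498 and 12.2, 12.4, 5.08 and 12.1 FPKM in 786-O. Both had their lowest value with siRNA #1 in each line and siRNA #2 values near NTC, as CCND1 did. ACTG1P20 is a pseudogene of gamma actin, so reads of its parent may be counted there. Among the members, CDK6 was the most like CCND1 (r = 0.87) and CCND3 was at -0.33.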

How the data were processed

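RNA from A498 and 786-O cells was sequenced with single-end reads of 36 bp. Per the labels, the authors' processing used TopHat2 2.0.0 and Cufflinks 2.0.2 on hg19. The deposited values are FPKM, which the authors computed with Cufflinks for each library on its own, with a 95% interval; scaling between libraries is not given in the sources used here. The 8 tables hold 75378 entries each, and counts were not used here, so count models were not fitted. RefSeq transcripts (43150 entries) were given symbols from a RefSeq gene table of GRCh38.p14, used for names only, and 96.6% matched. FPKM were summed per symbol in each library. The members and the gene lists were chosen with earlier results of these data known.

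Genes with a mean of at least 1 FPKM (11367) were tested with limma 3.58.1 in R 4.3.3 on log2(FPKM + 0.1). The fits used a variance trend and Benjamini-Hochberg adjustment over all genes tested. The 0.1 FPKM added before the log understates changes of low genes. The line comparison used all 8 libraries with knockdown as a covariate, and the siRNA comparisons used the line as a covariate. Calls are at an adjusted p under 0.05. Single siRNA libraries were set against the NTC mean of their line after 0.1 FPKM was added to each. The scripts were tested on simulated data. Named genes are all members, up to 6 called genes per list with the largest difference between the lines, and the listed chromosome 9 neighbours. Also named are the nearest tested gene on each side of a member, the 5 genes most like CCND1, and SLINKY. CDKN2D, E2F5 and the PAX8, CA9, CDH16, PTPRC, PECAM1 and ALB levels were added after their values were seen. Some genes that this rule names are not reported here. Alternatives were the pseudocount, the filter, median-ratio scaling, the highest entry per symbol, leaving out genes spanning under 200 bp, a replicate block, subsets of libraries and leaving out each library.

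Depth was estimated from Cufflinks intervals of genes with a single entry of at least 3000 bp. A floor is 3 reads at that depth and at GENCODE transcript length. Intervals and floors cover counting error only. No library was identical to another. The correlation of the deviations of same-numbered libraries was -0.0048 in A498 and 0.0064 in 786-O over all genes tested, and 0.171 and 0.0227 without genes spanning under 200 bp. The labels name no source that a number shares, and an siRNA number names the siRNA, not a replicate. The numbers were not taken as pairs. The labels call the siRNAs pools, while the study's methods describe single custom siRNAs. Python 3.11.15, numpy 2.4.6, pandas 2.3.3 and matplotlib 3.10.9 were used.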

Additional observations from a re-analysis of the deposited data

How the results depend on the processing

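The 6 calls between the lines held under both other pseudocounts (0.01 and 1 FPKM), without the filter, with median-ratio scaling, without genes spanning under 200 bp, with the replicate block and without each library in turn. They were lost for CDKN2C with the highest entry per symbol and for RB1 in the NTC or siRNA libraries alone, as given in the report, and for CDKN2C in the siRNA libraries alone (-0.16, limma adjusted p = 0.10). CDKN1B, not called, turned to 0.017 with median-ratio scaling and 0.0021 in the siRNA libraries alone, and ran from -0.083 to 0.0076 without single libraries. Of the differences near 0 that changed sign, siRNA #1 gave 0.090 for CDKN2C with the highest entry per symbol. Without single libraries siRNA #1 gave -0.016 to 0.037 for CCND3 and -0.059 to 0.0091 for CDK4, siRNA #2 gave -0.051 to 0.11 for CDKN1B, and siRNA #1 against siRNA #2 gave -0.024 to 0.044 for CDK4 and -0.016 to 0.15 for CDKN1B. With the highest entry per symbol CDK6 with siRNA #1 in A498 was at -0.23, short of the fold threshold, CDKN2C with siRNA #2 in 786-O was at -0.47, past it, and CCND1 was 30.7% of the D cyclins in A498 and 66.1% in 786-O (this share setting was chosen after the data were seen). Knockdown fits rest on few libraries, and the cause of their moves was not tested.

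Counts of all genes moved more in the knockdown fits. Between the lines, median-ratio scaling gave 9160 calls, of which 4827 were higher in A498, against 4441 of 9150 in the reported fit, so that the larger side changed from 786-O to A498. At a pseudocount of 1, 11 genes passed within A498 (20 in the reported fit), 5 for siRNA #1 (8) and 2 for siRNA #2 (4). With a pseudocount of 0.01 the interaction gave 7 (16). Without the filter the counts were 0 within A498, 5 within 786-O (16), 2 for siRNA #2 and 27 for the interaction. Without genes spanning under 200 bp they were 0 over both lines (1), 3 within A498, 0 within 786-O, 52 for siRNA #1, 49 for siRNA #1 against siRNA #2 (6) and 1 for the interaction. With the highest entry per symbol they were 3 for siRNA #1 and 3 for siRNA #1 against siRNA #2. Where 0 genes passed, the reported fits had 489 (A498), 478 (786-O) and 1302 (both lines) genes at an unadjusted limma p under 0.05. Without single libraries the counts were 1 to 3 over both lines, 48 to 61 within A498, 29 to 41 within 786-O, 1 to 32 for siRNA #1, 3 to 26 for siRNA #2, 3 to 24 for siRNA #1 against siRNA #2 and 28 to 38 for the interaction. A fit without one siRNA library rests on the other line for that siRNA, and a lone sample is assumed to vary like the others.

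The replicate block grouped NTC 1 with siRNA #1 and NTC 2 with siRNA #2. With it, 9117 genes passed between the lines (9150), 0 within A498, 4 within 786-O, 5 for siRNA #1 and 9 for the interaction. In the same fits CDK4 with siRNA #1 was at 0.0035, CDKN1B with siRNA #2 at -0.0038, and CDK6 in siRNA #1 against siRNA #2 was no longer called (-0.51, limma adjusted p = 0.493). The labels name no pairs, and an siRNA number names the siRNA, not a replicate. The correlations of same-numbered libraries were 0.171 in A498 and 0.0227 in 786-O without genes spanning under 200 bp, and near 0 with them. They cannot show whether libraries are paired.

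Genes past the study's fold threshold in single libraries numbered 633 and 842 (siRNA #1 and #2 in A498) and 857 and 656 (in 786-O). At a pseudocount of 1 they were 415, 533, 520 and 417, without the filter 2272, 2847, 2185 and 1734, and with the highest entry per symbol 1245, 1603, 1431 and 1277. Without genes spanning under 200 bp there were 379 for siRNA #1 in A498 and 384 for siRNA #2 in 786-O. Without 1 NTC library of the line the ranges were 641 to 889, 731 to 1377, 896 to 1035 and 762 to 818.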
